A study of Homo sapiens with 16 samples.

Results

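The comparison concerns p53-/- and p53+/+ cells of HCT116, a human colorectal cancer cell line, that had received no drug. Its members are the 2 p53-/- and the 2 p53+/+ libraries whose titles call the cells untreated and whose treatment label is DMSO for 8 hours, 4 of the 16 libraries of the series. Polyadenylated RNA was sequenced, and gene levels are RPKM, reads scaled by gene length and by library size. The table lists 20612 genes, and 12466 of them entered the test because their RPKM averaged at least 0.5 across all 16 libraries. In the other 12 libraries the same lines had been treated for 8 hours with 2.5 µM Entinostat, which inhibits class I histone deacetylases, with 5 µM Nutlin-3A, which keeps MDM2 from binding p53, or with both. The labels do not say how many clones the p53-/- line represents or how it was made, so the loss of p53 and other differences between the lines cannot be told apart. Nor do they say that replicates were separate cultures, so a p-value here reflects only how far these samples scatter, which may be technical.

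p53 is a transcription factor that is kept at a low level in unstressed cells by the ubiquitin ligase MDM2, itself encoded by a p53 target gene. It binds response elements near its target genes, among them the cell cycle inhibitor CDKN1A, death receptors, DNA repair genes and secreted factors. The comparison without drug concerns target genes at the resting level of the protein.

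The p53-/- DMSO libraries had 48143500 and 49465400 alignments, and the p53+/+ DMSO libraries 48353200 and 51556000, within the range of 45902800 to 55507300 over the series. The median absolute log2 difference between replicates was 0.133 in p53-/- and 0.113 in p53+/+ cells. Epithelial markers overlapped between the lines: the summed RPKM of 8 colorectal epithelial markers was 2065 and 2205 in p53-/- libraries, against 2078 and 2280 in p53+/+ libraries. EPCAM, KRT8, KRT18, KRT19, CDH1 and CDX2 were present in all 4 libraries, while VIL1 and CDX1, markers of mature colon epithelium, were at or near 0. All 4 endothelial markers lay under 0.5 RPKM, as did 3 of 4 leukocyte markers and 4 of 5 fibroblast markers. CDKN1A also followed the genotype labels under Nutlin-3A, with 26.9 and 16.7 RPKM in p53-/- libraries, against 1059 and 763 RPKM in p53+/+ libraries. In cell populations such as these, fewer cells expressing a gene and less RNA per cell cannot be told apart.

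Without drug, 195 genes had higher and 390 lower levels in p53-/- than in p53+/+ cells (limma on log2(RPKM + 0.5), adjusted p under 0.05), together 585 genes or 4.69% of those tested. Most of these differences were moderate: the median size was 0.71 on the log2 scale for higher genes and 0.75 for lower genes. A log2 difference of at least 1 was reached by 42 higher and 108 lower genes, and one of at least 2 by 4 higher and 20 lower genes. With the replicate number as a block, 586 genes were higher and 1048 lower, 1634 of 12466 tested, among them all 585. Counts of list members called with the block are to be read against this larger share. Without p53-/- replicate 1 or 2 the count was 341 or 239, and without p53+/+ replicate 1 or 2 it was 240 or 327. All log2 differences below are p53-/- minus p53+/+, and since 0.5 was added to each RPKM they understate the fold of genes with low levels.

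**Figure D1:**
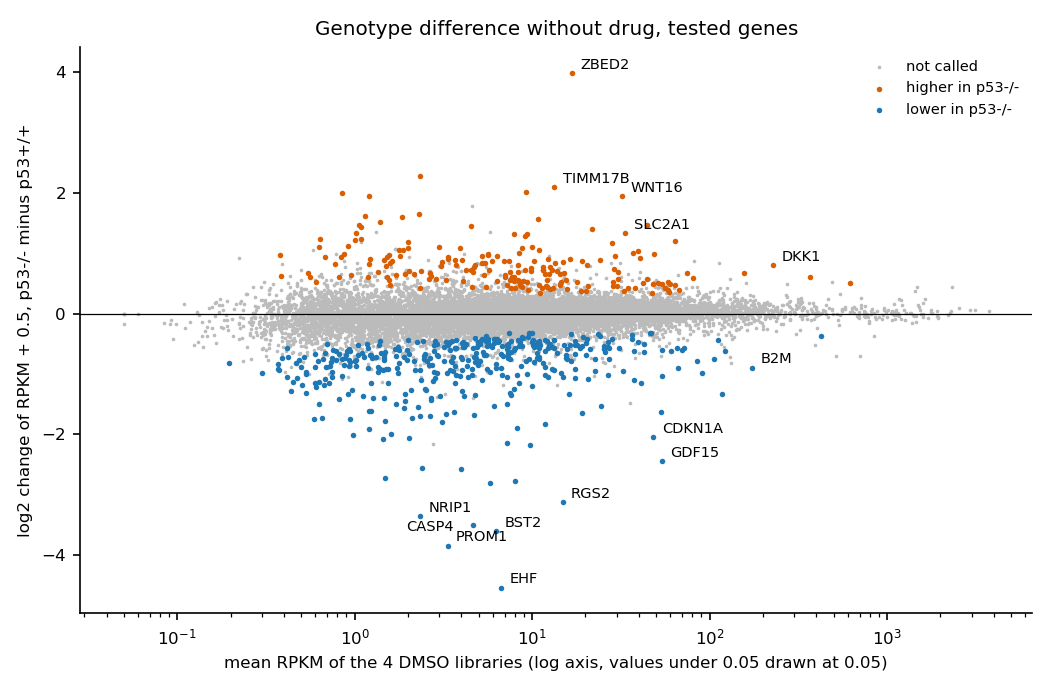
Log2 difference without drug (vertical axis, p53-/- minus p53+/+) against the mean RPKM of the 4 DMSO libraries (horizontal log axis) for tested genes. Orange points are genes higher in p53-/- cells, blue points lower ones, and grey points were not called; EHF at -4.53 and ZBED2 at 3.98 lie farthest out.

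Of 60 tested p53 target genes, 17 were lower in p53-/- cells and 1 was higher, where 3.13% and 1.56% of all tested genes were. The median log2 difference of the 60 genes was -0.19, against -0.01 for all tested genes. Another 6 genes of the list were too low to be tested, and 42 of the 60 did not pass the test. With the replicate block 25 members were lower and 3 higher, where 1048 and 586 of all 12466 tested genes were. The same shares of all tested genes are to be set beside the counts of each smaller group of targets below. Without p53-/- replicate 1 or 2 the lower members were 13 or 6, and without p53+/+ replicate 1 or 2 they were 6 or 12.

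The promoters of these genes were searched for the p53 response element, the site that p53 binds, since several of the called targets carry it close to the start of transcription. The element is a pair of decamers without spacer, each with a C and a G at fixed core positions. The consensus reads alike on both strands, so both were searched. Up to 3 mismatches outside the cores were allowed, from 250 bases before to 50 bases after each start in RefSeq (GRCh38.p14). Among tested genes with a promoter in that table, 148 of 9378 (1.58%) held such a sequence, 11 of 47 p53 targets (23.4%), 13 of 290 genes lower in p53-/- cells (4.48%) and 2 of 152 genes higher in them (1.32%). Of the 13 lower genes, 6 are p53 targets that are also among the 11, so these shares are not separate counts. The 6 matches in targets that were lower in p53-/- cells are shown 5′ to 3′ on the strand of the gene, with the core C and G of each decamer in capitals.
MDM2: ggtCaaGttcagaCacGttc
FAS: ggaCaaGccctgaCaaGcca
DDB2: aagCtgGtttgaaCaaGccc
RPS27L: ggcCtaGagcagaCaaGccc
SESN1: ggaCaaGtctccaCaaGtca
GDF15: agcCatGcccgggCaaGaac
They lie at chr12:68808923-68808942 for MDM2, chr10:88991309-88991328 for FAS, chr11:47214969-47214988 for DDB2, chr15:63157527-63157546 (minus strand) for RPS27L, chr6:109009018-109009037 (minus strand) for SESN1 and chr19:18386186-18386205 for GDF15. The match of DDB2 has 1 mismatch, those of MDM2 and FAS have 2, and those of RPS27L, SESN1 and GDF15 have 3. Matches were also found in targets that were not called, as in AEN, which encodes an apoptosis-enhancing nuclease, and in PMAIP1, which encodes the BH3-only protein NOXA.
AEN: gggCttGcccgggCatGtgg
PMAIP1: gagCgtGtccgggCagGtcg
The AEN match is at chr15:88621306-88621325 with 2 mismatches, and the PMAIP1 match at chr18:59899811-59899830 with 3. A match is only a run of letters, and a window without one says nothing about binding elsewhere.

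Among the 8 cell cycle targets, CDKN1A and BTG2 were lower and PLK2 was higher. CDKN1A, which encodes the CDK inhibitor p21, had 23.7 and 14.1 RPKM in p53-/- libraries, against 89.2 and 66.1 RPKM in p53+/+ libraries. Both p53-/- libraries lay far below both p53+/+ libraries, yet the gene was not silent, and its mean was 4.1-fold lower in p53-/- cells (log2 difference -2.04 ± 0.37 SE, limma adjusted p = 0.0071). BTG2, an antiproliferative factor, had 4.57 and 3.67 RPKM in p53-/- libraries, against 12.2 and 10.2 RPKM in p53+/+ libraries (log2 difference -1.34, adjusted p = 2e-04). PLK2, a kinase of the polo family, ran the other way, with 35.5 and 28.3 RPKM in p53-/- libraries, against 12 and 11.4 RPKM in p53+/+ libraries (log2 difference 1.40, adjusted p = 0.0053). SFN, which encodes 14-3-3 sigma, GADD45A, PLK3, ZMAT3 and the repressor E2F7 were not called, with log2 differences from -0.42 for ZMAT3 to 0.32 for SFN. The CDKN1A call ended without p53-/- replicate 2 (adjusted p = 0.095) or p53+/+ replicate 1 (0.087), and the PLK2 call without p53-/- replicate 1 (0.058).

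Of the 7 targets that act back on p53 itself, TP53INP1, PHLDA3 and MDM2 were lower. TP53INP1, a stress protein that promotes p53 activity, had 0.86 and 0.533 RPKM in p53-/- libraries, against 3.74 and 2.42 RPKM in p53+/+ libraries, a mean 4.42-fold lower in p53-/- cells (log2 difference -1.57, adjusted p = 0.00087). MDM2 had 14.6 and 14.7 RPKM in p53-/- libraries, against 20.4 and 20 RPKM in p53+/+ libraries. The replicates were close together and the groups apart, but the difference was small, 1.38-fold (log2 difference -0.45 ± 0.12, adjusted p = 0.048). PHLDA3, which restrains AKT, was 1.61-fold lower (log2 difference -0.64, adjusted p = 0.021). The phosphatase gene PPM1D (-0.43, adjusted p = 0.092) was called only with the replicate block (adjusted p = 0.022), and CCNG1, TRIAP1 and the ubiquitin ligase gene RCHY1 stayed between -0.13 and -0.03. The MDM2 call ended when any of the 4 libraries was left out (adjusted p 0.173 to 0.261). That of PHLDA3 ended without p53-/- replicate 2 (0.202), p53+/+ replicate 1 (0.222) or p53+/+ replicate 2 (0.055).

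Of the 7 targets in DNA repair and nucleotide supply 4 were lower. DDB2, the damage sensor of nucleotide excision repair, had 12.2 and 10.2 RPKM in p53-/- libraries, against 26.0 and 21.8 RPKM in p53+/+ libraries. Its groups stood well apart, with a mean 2.14-fold lower in p53-/- cells (log2 difference -1.06, adjusted p = 0.0047). XPC, a partner of DDB2 in the same pathway (log2 difference -0.55, adjusted p = 0.031), RRM2B, a ribonucleotide reductase subunit (-0.81, adjusted p = 0.0037), and RPS27L, a ribosomal protein paralogue (-0.50, adjusted p = 0.0088), were also lower. RPS27L stood at a high level in both lines, with 37.3 and 33.7 RPKM in p53-/- libraries, against 50.3 and 50.4 RPKM in p53+/+ libraries. The polymerase gene POLH (-0.30), PCNA (-0.13) and ASCC3 (-0.07) were not called. Without p53-/- replicate 2 or p53+/+ replicate 1 the calls of all 4 genes ended (adjusted p 0.058 to 0.29), and without p53+/+ replicate 2 those of XPC (0.06) and RPS27L (0.062) ended. Without p53-/- replicate 1 that of XPC ended (0.066).

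Of the 15 tested apoptosis targets 3 were lower, and 6 with the replicate block. Among all tested genes 3.13% were lower, and 1048 of 12466 with the block. FAS, a death receptor, had 1.47 and 1.06 RPKM in p53-/- libraries, against 4.43 and 3.15 RPKM in p53+/+ libraries (log2 difference -1.27, adjusted p = 0.0042). TP53I3, a quinone oxidoreductase of the p53 response, was 2.79-fold lower (log2 difference -1.29, adjusted p = 0.0014). TNFRSF10C, a decoy receptor for TRAIL, was nearly absent from p53-/- libraries, at 0.0719 and 0.119 RPKM, against 0.751 and 0.711 RPKM in p53+/+ libraries (adjusted p = 0.00049). The other 12 tested apoptosis targets were not called. BAX, a pore-forming member of the BCL2 family, had 25.2 and 25.3 RPKM in p53-/- libraries, against 26.2 and 24.5 RPKM in p53+/+ libraries. The 95% interval of its log2 difference ran from -0.23 to 0.21. PMAIP1 (0.03), EI24 (-0.03), TNFRSF10A (0.18), TNFRSF10B (-0.21) and TNFRSF10D (0.16) likewise had small differences. BBC3, which encodes PUMA, was at 4.07 and 3.02 RPKM in p53-/- libraries, against 8.6 and 5.23 RPKM in p53+/+ libraries (log2 difference -0.85, adjusted p = 0.16), and was called with the replicate block (adjusted p = 0.002), as were IKBIP (0.023) and NINJ1 (0.01). The FAS call ended without p53-/- replicate 2 (0.064) or p53+/+ replicate 1 (0.066).

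GDF15, a secreted stress cytokine, had the largest log2 difference of the p53 targets. It had 19 and 13.4 RPKM in p53-/- libraries, against 115 and 68.2 RPKM in p53+/+ libraries, a mean 5.66-fold lower in p53-/- cells (log2 difference -2.44 ± 0.34, adjusted p = 0.001). The p53+/+ replicates differed from each other more than the p53-/- replicates did, without any overlap between genotypes. CYFIP2, a subunit of the WAVE complex that shapes the actin cytoskeleton, was the other called member of the 11 secreted and surface targets (log2 difference -1.02, adjusted p = 0.0084). The cytokine LIF (-1.18, adjusted p = 0.059) was called only with the replicate block (adjusted p = 0.012), and EPHA2 (0.33) was called as higher with it (0.011). KITLG, SERPINB5, TGFA, RAP2B, CEL and VWCE were not called. Of 12 metabolic, redox and mTOR-restraining targets, SESN1, CMBL and DRAM1 were lower. SESN1, a sestrin that lowers mTORC1 activity, had 1.70 and 1.59 RPKM in p53-/- libraries, against 4.49 and 3.56 RPKM in p53+/+ libraries (log2 difference -1.07, adjusted p = 0.00021). CMBL, a hydrolase (-0.56, adjusted p = 0.043), and DRAM1, a lysosomal autophagy protein (-0.47, adjusted p = 0.046), differed little. DDIT4, another mTORC1 inhibitor, had 25.4 and 11.7 RPKM in p53-/- libraries, against 72.9 and 33.2 RPKM in p53+/+ libraries. Its replicates spread so widely that the log2 difference of -1.49 was not called (adjusted p = 0.081), but within each replicate number p53-/- was lower, and the block gave adjusted p = 0.00066. FDXR (adjusted p = 0.062) and FUCA1 (0.69) were lower and ALDH4A1 (0.38) higher only with the block, at adjusted p = 0.00056, 0.0084 and 0.043. The CYFIP2 call ended without p53-/- replicate 2 (0.089), p53+/+ replicate 1 (0.072) or p53+/+ replicate 2 (0.055). That of CMBL ended without any of the 4 libraries (0.157 to 0.242), and that of DRAM1 without p53-/- replicates 1 (0.065) or 2 (0.333) or p53+/+ replicate 1 (0.408).

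**Figure D2:**
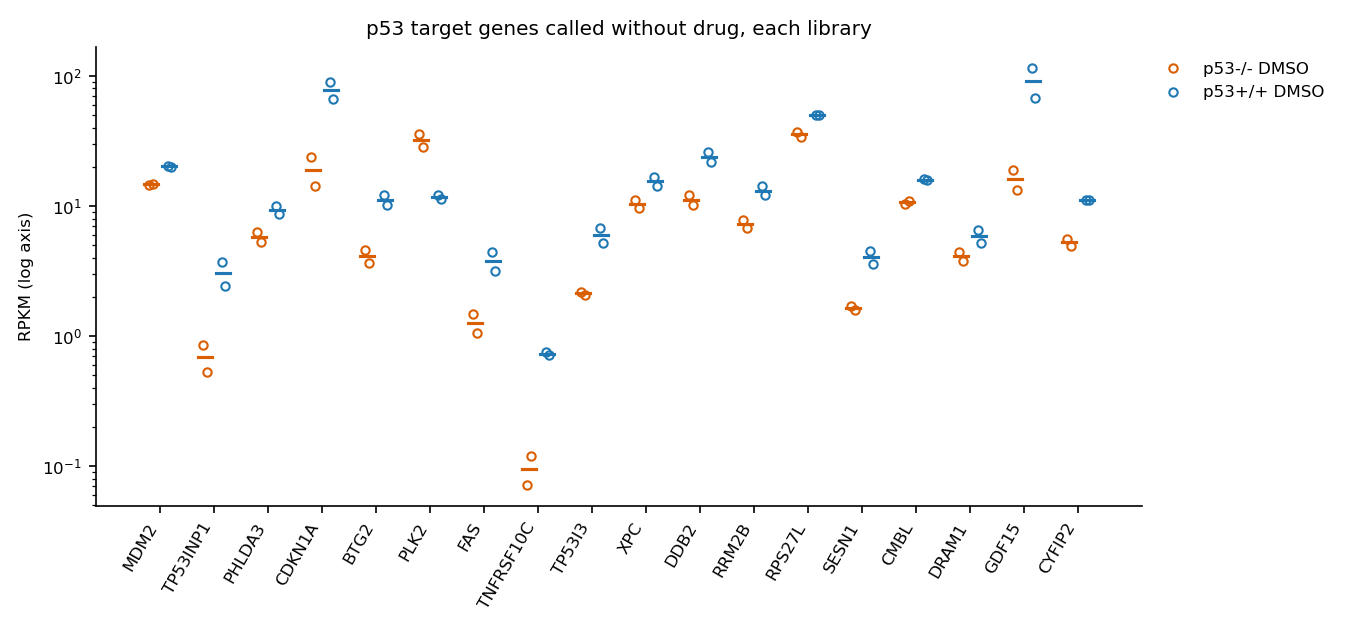
RPKM (log axis) of the 18 p53 target genes called without drug, with each library as a circle and the mean of 2 libraries as a bar, p53-/- in orange to the left of p53+/+ in blue. In 17 genes both p53-/- circles lie below both p53+/+ circles, and PLK2 shows the opposite order. GDF15 has the largest log2 difference and MDM2 one of the smallest. Only called genes are drawn, and all 390 lower and 195 higher called genes had no overlap between genotypes. The separation of the circles therefore comes with being called.

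These same genes can be set beside a response measured in other libraries, that of p53+/+ cells to Nutlin-3A added to Entinostat. Its group means share no library with those without drug, but both comparisons used the same estimate of the spread of each gene. With Nutlin-3A added to Entinostat, 52 of the 60 p53 targets rose and 0 fell (limma), where 5.16% of tested genes rose and 9.69% fell. Under quantile normalization the genes that rose and fell there were 873 and 992 in place of 643 and 1208. All 18 targets called without drug were among the 52. MDM2 rose there by a log2 change of 4.42 while its difference without drug was -0.45. PLK3 rose by 3.86, SERPINB5 by 2.71 and SFN by 1.56, and none of these was called between genotypes without drug (log2 differences -0.02, 0.23 and 0.32). CDKN1A, by contrast, combined a rise of 2.96 with a basal difference of -2.04, and GDF15 a rise of 3.18 with one of -2.44. Over all genes lower in p53-/- cells, 73 of 390 (18.7%) rose with Nutlin-3A added to Entinostat, which is 11.4% of the 643 genes that rose, and 20 of 390 (5.13%) fell. Of the 195 higher genes, 22 (11.3%) rose and 17 (8.72%) fell. EHF, PROM1, BST2, CASP4 and NRIP1, the genes with the largest falls among those named, had changes from -0.13 to 0.25 with Nutlin-3A added to Entinostat, none of them called. Nutlin-3A alone was not tested against DMSO here. EHF had 28.4 and 22.4 RPKM in p53+/+ libraries with Nutlin-3A alone, against 13.2 and 13.4 RPKM with DMSO, and CASP4 had 11.1 and 10.2 RPKM, against 9.2 and 8.65 RPKM.

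Some of the largest falls were in genes nearly silent in p53-/- cells. EHF, an ETS factor of epithelial cells, had 0.105 and 0.0879 RPKM in p53-/- libraries, against 13.2 and 13.4 RPKM in p53+/+ libraries, a mean 138-fold lower in p53-/- cells (log2 difference -4.53 ± 0.26, adjusted p = 1.1e-06). Over all treatments EHF did not exceed 0.233 RPKM in any of 8 p53-/- libraries, and it was at least 4.55 RPKM in all 8 p53+/+ libraries. The groups therefore did not meet under any drug. PROM1, which encodes the surface antigen CD133 used to mark tumour-initiating colon cells, was listed at 0 in both p53-/- libraries, against 7.39 and 5.99 RPKM in p53+/+ libraries (log2 difference -3.84, adjusted p = 5.4e-08). It did not exceed 0.0643 RPKM in any p53-/- library of the series.

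By a rule chosen after the values were seen, the 12 genes given next were under 0.5 RPKM in all 8 p53-/- libraries and above 1 RPKM in both p53+/+ DMSO libraries. Among them were EHF, TWIST1, a basic helix-loop-helix factor of mesenchyme, and NRIP1, a nuclear receptor corepressor. TWIST1 had 0 RPKM listed for each p53-/- DMSO library, against 1.16 and 1.19 RPKM in p53+/+ libraries. NRIP1 was listed at 0 and 0.00546 RPKM in p53-/- libraries, against 4.15 and 5.18 RPKM in p53+/+ libraries. Other members were SYK, a tyrosine kinase of immune receptor signalling, KRT23, a type I keratin, PXDN, a peroxidase that cross-links basement membrane collagen, NPM2, a histone chaperone best known in oocytes, FN3K, which removes sugar adducts from proteins, BTN3A3, CCDC28B, PROM1 and SLC22A17. PXDN had 0.0123 and 0.0241 RPKM in p53-/- libraries, against 2.51 and 3.4 RPKM in p53+/+ libraries. The opposite pattern was seen in 2 genes, ITGB8, an integrin subunit that activates latent TGF-beta, and TM4SF18, a tetraspan membrane protein. ITGB8 had 2.23 and 1.37 RPKM in p53-/- libraries, against 0.312 and 0.326 RPKM in p53+/+ libraries.

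EHF was not followed by its whole family. Beside the list counts given next, 3.13% of all tested genes were lower and 1.56% higher. Of 15 tested ETS epithelial factors, 3 were lower and 0 higher (1 higher with the block): EHF, its close relative ELF3 (log2 difference -1.01, adjusted p = 0.00071), and ETV1 (-0.77, adjusted p = 0.02). ELF3 had 8.73 and 6.63 RPKM in p53-/- libraries, against 17.9 and 14 RPKM in p53+/+ libraries, and so remained well expressed in both. Of 13 colon stem cell and tumour-initiating surface markers 2 were lower and 3 with the block, the 2 being PROM1 and LRIG1, a negative regulator of receptor tyrosine kinases (log2 difference -1.17, adjusted p = 0.045). Of 29 genes of epithelial adhesion and keratins, KRT23 was lower and NECTIN3 higher, with 4 lower and 1 higher under the block. Of 8 mesenchymal genes TWIST1 and ACTA2 were lower. ACTA2, smooth muscle actin, overlaps FAS on the opposite strand, and the sources used here do not state how counting treated strand, so its difference (-1.27, adjusted p = 0.016) and its change of 2.35 with Nutlin-3A added to Entinostat cannot be told apart from those of FAS. The ETV1 call ended without p53-/- replicate 2 (0.198), p53+/+ replicate 1 (0.14) or p53+/+ replicate 2 (0.107), and those of LRIG1 (0.062 to 0.367) and ACTA2 (0.057 to 0.14) without any of the 4 libraries.

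Several genes of innate immune sensing and antigen presentation were lower in p53-/- cells. CASP4, the inflammatory caspase that senses intracellular lipopolysaccharide, had 0.387 and 0.291 RPKM in p53-/- libraries, against 9.2 and 8.65 RPKM in p53+/+ libraries, a mean 26.3-fold lower in p53-/- cells (log2 difference -3.49, adjusted p = 9.4e-08). BST2, or tetherin, which holds enveloped viruses at the cell surface, had 0.663 and 0.405 RPKM in p53-/- libraries, against 11.3 and 12.7 RPKM in p53+/+ libraries, a mean 22.4-fold lower (log2 difference -3.60, adjusted p = 1.6e-07). For both genes the p53-/- libraries stayed under 1 RPKM and the replicates of each genotype lay close together. Of 39 interferon response genes 27 were tested, and the others, MX1, OAS1 and RSAD2 among them, were too low. Of the 27, 5 were lower and 0 higher, where 3.13% and 1.56% of all tested genes were. The list median was -0.31, and 9 were lower with the replicate block. Beside BST2 these were IFI35 (-1.05, adjusted p = 0.0021), HERC5, the ligase of the ubiquitin-like protein ISG15 (-0.97, adjusted p = 0.011), the RNA sensor IFIH1 (-0.90, adjusted p = 0.0039) and the transcription factor IRF1 (-0.44, adjusted p = 0.041).

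Of 19 MHC class I genes 15 were tested. Among these B2M and HLA-E were lower, and with the replicate block 4 were lower and 1 higher. For the lists of this paragraph, the shares over all tested genes are 3.13% lower and 1.56% higher. With the block 1048 of all 12466 tested genes were lower and 586 higher. B2M, the invariant light chain of class I molecules, had 126 and 116 RPKM in p53-/- libraries, against 234 and 217 RPKM in p53+/+ libraries (log2 difference -0.90, adjusted p = 0.00011). The level was high in both lines, and the mean was 1.86-fold lower in p53-/- cells. HLA-E, a non-classical class I heavy chain, was 2.1-fold lower (log2 difference -0.94, adjusted p = 0.011). HLA genes are close copies of each other, so how reads were shared among them is uncertain. TMEM173, which encodes the DNA-sensing adaptor STING, and TRIM38, a ubiquitin ligase that modulates innate signalling, were chosen after their values were seen. TMEM173 had 2.68 and 3.11 RPKM in p53-/- libraries, against 9.63 and 8.95 RPKM in p53+/+ libraries (log2 difference -1.53, adjusted p = 8.3e-06), and TRIM38 differed by -1.43 (adjusted p = 0.00024). CASP4 was the only one called of 9 tested among 22 listed inflammasome genes (2 with the block). Of 11 tested among 22 listed NF-kB targets and chemokines 1 was lower, CXCL16 (-0.39, adjusted p = 0.019), and 3 were with the block. The HERC5 call ended without p53-/- replicate 2 (0.129) or p53+/+ replicate 1 (0.136). That of HLA-E ended without p53-/- replicates 1 (0.055) or 2 (0.102) or p53+/+ replicate 1 (0.145), and those of IRF1 (0.09 to 0.277) and CXCL16 (0.088 to 0.163) without any of the 4.

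ZBED2, a zinc finger transcription factor, was the gene most raised in p53-/- cells. It had 32.5 and 31.6 RPKM in p53-/- libraries, against 1.64 and 1.48 RPKM in p53+/+ libraries, a mean 20.5-fold higher in p53-/- cells (log2 difference 3.98 ± 0.30, adjusted p = 1.5e-05). Its neighbour in the RefSeq gene order, NECTIN3, a cell adhesion molecule, had 15.6 and 14.6 RPKM in p53-/- libraries, against 3.47 and 3.27 RPKM in p53+/+ libraries (log2 difference 2.01, adjusted p = 7.3e-06). TIMM17B, a subunit of the mitochondrial inner membrane import channel, had 21.7 and 22.1 RPKM in p53-/- libraries, against 5.47 and 4.15 RPKM in p53+/+ libraries (log2 difference 2.09, adjusted p = 1.9e-06). Few other import genes were called. Of 24 tested import genes TIMM17B and TIMM10 (0.49, adjusted p = 0.044) were higher and TOMM34 was lower (-0.95, adjusted p = 0.00041), where 1.56% and 3.13% of all genes were, and with the block 3 were higher and 1 lower. The TIMM10 call ended without any of the 4 libraries (0.059 to 0.371).

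Of the Wnt genes, 3 ligands and 3 pathway targets were higher in p53-/- cells. WNT16 had 51.9 and 51.1 RPKM in p53-/- libraries, against 12 and 14 RPKM in p53+/+ libraries, a mean 3.96-fold higher in p53-/- cells (log2 difference 1.95, adjusted p = 0.00041). WNT9A and WNT3A, which are neighbours in the genome, rose together, WNT9A to 3.27 and 4.26 RPKM in p53-/- libraries, against 0.951 and 0.768 RPKM in p53+/+ libraries. WNT3A had 2.08 and 1.89 RPKM in p53-/- libraries, against 0.397 and 0.227 RPKM in p53+/+ libraries. WNT7B was the only lower call among the 12 tested ligands and secreted regulators, of which 4 had negative differences and 3 were higher and 3 lower with the block. It had 2.03 and 2.11 RPKM in p53-/- libraries, against 4.14 and 5.06 RPKM in p53+/+ libraries (log2 difference -0.98, adjusted p = 0.017). Of 16 tested Wnt pathway targets 3 were higher and 0 lower, where 1.56% and 3.13% of all tested genes were, and with the block 5 were higher and 1 lower. The 3 were DKK1, a secreted inhibitor of the pathway, AXIN2, a component of its destruction complex, and BMP4, a ligand of the BMP pathway. DKK1, the most abundant of them, had 286 and 292 RPKM in p53-/- libraries, against 171 and 161 RPKM in p53+/+ libraries (log2 difference 0.79, adjusted p = 0.038). AXIN2 differed by 0.80 (adjusted p = 0.013) and BMP4 by 0.91 (adjusted p = 0.01). Several of these calls ended when a library was left out, which leaves 1 in its group. Those of DKK1 and WNT7B ended whichever of the 4 libraries was left out. Those of AXIN2 and BMP4 ended without p53-/- replicate 2 or p53+/+ replicate 1.

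Other strong rises fell in several functions. The list counts in this paragraph stand beside 1.56% higher and 3.13% lower among all tested genes. With the block those were 586 and 1048 of 12466. SLC2A1, the glucose transporter GLUT1, had 48.4 and 48.0 RPKM in p53-/- libraries, against 19.8 and 18.0 RPKM in p53+/+ libraries, a mean 2.55-fold higher in p53-/- cells (log2 difference 1.33, adjusted p = 7.8e-05). Of 29 hypoxia and glycolysis genes, SLC2A1 and TPI1 (0.50, adjusted p = 0.016) were higher and CA12 (-1.34) and ADM (-1.33) lower. With the block 3 were higher and 8 lower, and 17 of the 29 had negative differences. F3, or tissue factor, which starts blood coagulation, had 66.6 and 64.5 RPKM in p53-/- libraries, against 20.3 and 27.3 RPKM in p53+/+ libraries (log2 difference 1.46, adjusted p = 0.00047). DNER, a Notch ligand best known in neurons, was 10.6-fold higher (log2 difference 1.94), and it was the only one called of 19 tested Notch pathway genes, of which 1 was higher and 2 were lower with the block. CHPT1, a choline phosphotransferase of phospholipid synthesis (1.57), SYTL2, an effector of vesicle transport (1.45), KRT81, a hair keratin (1.43), IAH1, an esterase (1.32), C1orf116 (1.52), ZNF134 (1.59) and LOC100507065 (1.33) completed the largest rises together with SNORA31 (2.28, adjusted p = 0.018), a small nucleolar RNA whose reads may be those of its host gene. KLF4 (0.81) and KLF5 (0.40, adjusted p = 0.041), zinc finger factors of the intestinal epithelium, were higher too. They belong to 6 tested intestinal differentiation genes, of which 4 had negative differences and the median was -0.21, with 2 higher and 1 lower under the block. The calls of TPI1 (0.062 to 0.136) and KLF5 (0.139 to 0.262) ended without any of the 4 libraries. That of SNORA31 ended without p53-/- replicates 1 (0.128) or 2 (0.086) or p53+/+ replicate 1 (0.177), that of KRT81 without either p53-/- replicate (0.058 each) or p53+/+ replicate 2 (0.085), that of ADM without p53-/- replicate 2 (0.062) or p53+/+ replicate 1 (0.053), and that of LOC100507065 without p53-/- replicate 2 (0.058).

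Lower genes outside these groups included signalling proteins, enzymes and nuclear proteins. Among all tested genes 3.13% were lower and 1.56% higher, to be set beside the list counts here. With the block 1048 of 12466 were lower and 586 higher. RGS2, which switches off G protein signalling, had 2.66 and 2.42 RPKM in p53-/- libraries, against 36.1 and 18.4 RPKM in p53+/+ libraries (log2 difference -3.11, adjusted p = 0.00031), and it was the only one called of 11 tested regulators, 1 other being higher with the block. ARAF, a RAF kinase of the ERK cascade, had 2.43 and 2.28 RPKM in p53-/- libraries, against 11.6 and 12.6 RPKM in p53+/+ libraries, a mean 5.12-fold lower (log2 difference -2.14, adjusted p = 1.3e-07). Its replicates were tight in both lines. The remaining falls among the largest were ENC1, an actin-binding protein (-2.81), ADGRF1, an adhesion G protein-coupled receptor (-2.78), DPYSL3, a cytoskeletal protein of growing axons (-2.57), SLC1A3, a glutamate transporter (-2.55), TRNP1 (-2.18), ARMC4, a cilium assembly protein (-2.06), and SEMA3A, a guidance ligand (-2.0). SQLE, squalene epoxidase, had 8.83 and 9.1 RPKM in p53-/- libraries, against 25.8 and 32.5 RPKM in p53+/+ libraries (log2 difference -1.64, adjusted p = 1.8e-05). Only TM7SF2 (-1.06, adjusted p = 0.022) joined it among 25 genes of cholesterol synthesis, whose median was 0.08. HDAC2, a class I histone deacetylase, had 15.8 and 14.6 RPKM in p53-/- libraries, against 29.8 and 29.9 RPKM in p53+/+ libraries (log2 difference -0.96, adjusted p = 4.6e-05). HDAC2 and NRIP1 were the called members of 24 HDAC and corepressor genes, of which 3 were lower with the block. Of 29 ribosome biogenesis and MYC genes 2 were lower, NOLC1, a nucleolar phosphoprotein (-1.33, adjusted p = 2e-04), and GNL3, or nucleostemin (-0.99, adjusted p = 0.00012), and the block added 2 higher ones. The TM7SF2 call ended without any of the 4 libraries (0.075 to 0.192).

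Few proliferation genes were called, where 3.13% of all tested genes were lower and 1.56% higher. None of 35 replication and G1/S genes was called, with a median log2 difference of -0.04 (2050 of all tested genes had an unadjusted p under 0.05 in this comparison). Of 32 G2/M and mitosis genes 1 was lower, the phosphatase gene CDC25B (-0.32, adjusted p = 0.037), and that call ended without any of the 4 libraries (0.073 to 0.325). With the block 1 replication gene was higher and 1 lower. When Nutlin-3A was added to Entinostat in p53+/+ cells, 29 of these 35 and all 32 of these genes fell. Of 19 death receptor pathway genes, FAS and TNFRSF10C were lower, and 3 were with the block. CFLAR, the caspase-8 inhibitor FLIP of the series title, had 2.17 and 2.32 RPKM in p53-/- libraries, against 1.94 and 2.07 RPKM in p53+/+ libraries (log2 difference 0.13, adjusted p = 0.8). No member was called among 15 BCL2 family genes, 15 genes of the ER unfolded protein response, 13 heat shock genes, 24 HOX genes, 21 genes of DNA methylation and Polycomb, 8 genes of the EGFR family, 6 metallothioneins or 5 cancer-testis antigens, though the block gave calls in all of these lists but heat shock. With it the BCL2 family had 1 lower member, the unfolded protein response 2 higher, HOX 1 higher and 4 lower, DNA methylation and Polycomb 2 higher and 1 lower, the EGFR family 1 higher and 1 lower, metallothioneins 2 lower and cancer-testis antigens 1 higher. Over all 12466 tested genes the block called 586 higher and 1048 lower, so single calls in such short lists say little about them. The transcription factor ATF5 (0.65, adjusted p = 0.0071) was the only one called of 22 integrated stress response genes, of which 3 were higher and 1 lower with the block. KLF4 was also the only one called of 30 immediate early and ERK feedback genes, of which 7 were higher and 4 lower with the block. The ATF5 call ended without p53-/- replicate 2 (0.084) or p53+/+ replicates 1 (0.051) or 2 (0.06).

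**Figure D3:**
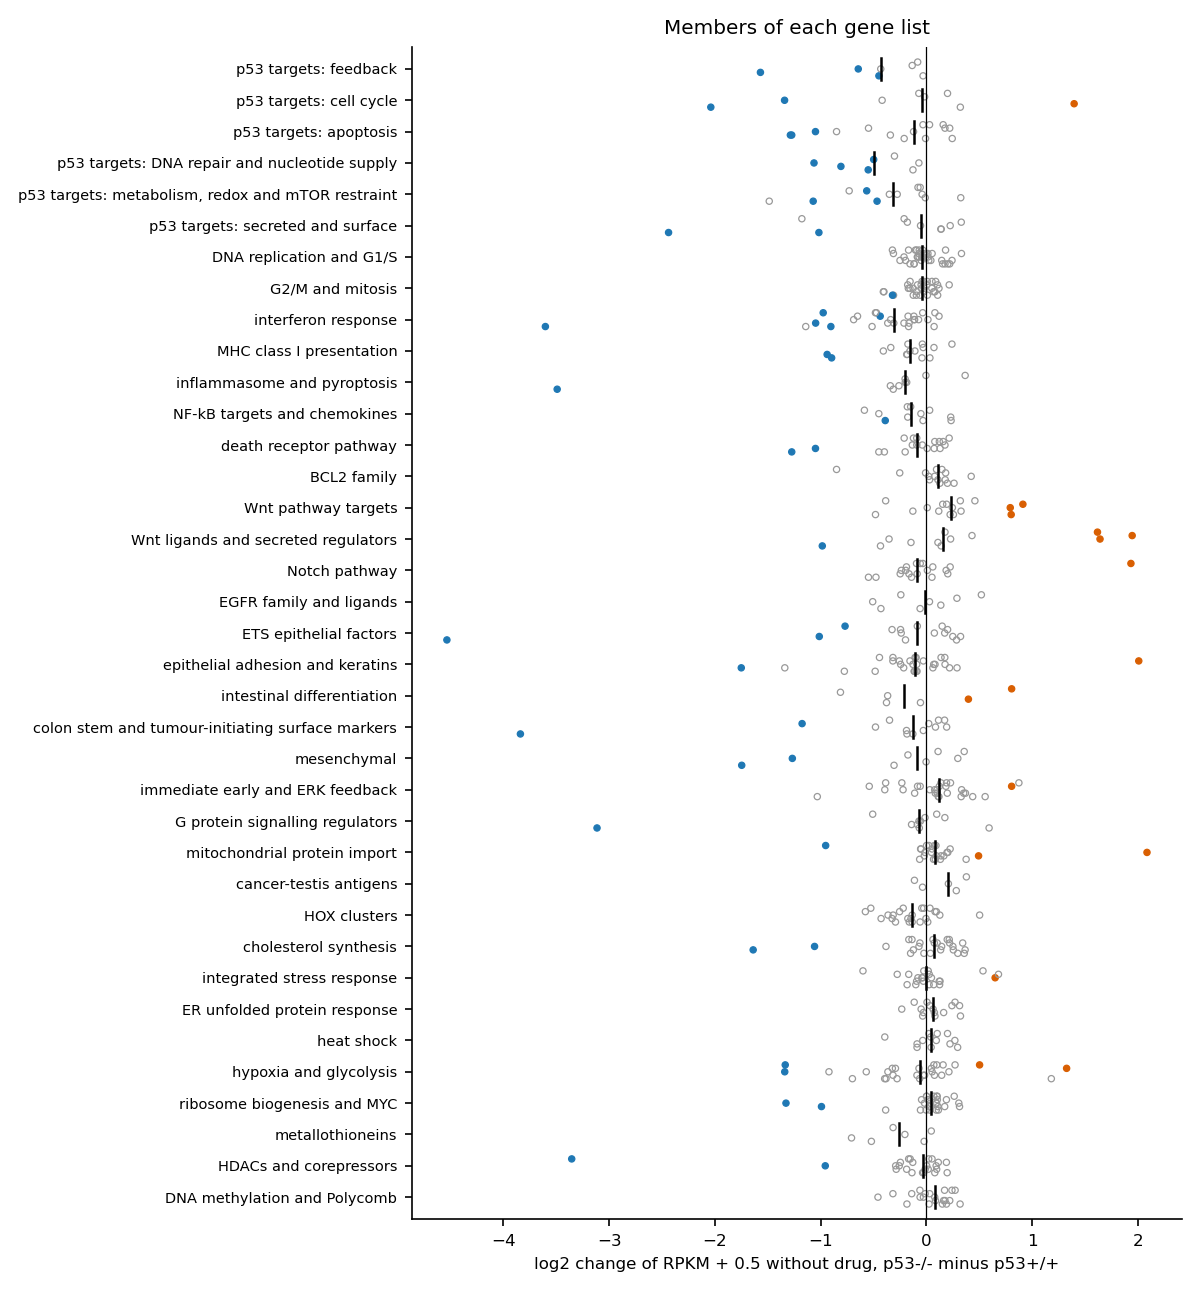
Log2 difference without drug (horizontal axis, p53-/- minus p53+/+) of tested members of 37 gene lists (rows), with called members filled, orange if higher and blue if lower in p53-/- cells, uncalled members open, and the list median as a black bar. The p53 target rows carry filled blue points on the left and PLK2 in orange, while the replication and mitosis rows stay close to 0.

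The genotype difference was measured a second time in the 4 libraries treated with Entinostat, whose group means share no library with those without drug. There 170 genes (1.36% of those tested) had higher and 299 (2.4%) lower levels in p53-/- cells, 3.76% together. Both comparisons came from 1 fit of 16 libraries and used the same estimate of the spread of each gene. Genes with a small spread were thus more readily called in both, and the shared calls are not those of separate tests. In a fit of the compared groups only, 131 genes were called under Entinostat. Of the 390 genes lower without drug, 211 (54.1%) were called lower under Entinostat, or 70.6% of the 299 called there, and 389 of 390 had the same sign. Of the 195 higher genes, 129 (66.2%) were called higher, or 75.9% of the 170, and all 195 had the same sign. The genes with the largest differences recurred: EHF had 0.233 and 0.13 RPKM in p53-/- libraries, against 4.55 and 7.39 RPKM in p53+/+ libraries under Entinostat, and ZBED2, PROM1, BST2, CASP4, TIMM17B and ARAF were called with log2 differences of 3.31, -3.63, -3.28, -3.06, 1.90 and -2.13. Of the 60 p53 targets 12 were lower and 1, E2F7, was higher under Entinostat, against 17 and 1 without drug.

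CDKN1A was one of the genes whose genotype difference was smaller in the Entinostat libraries. It had 91 and 49.9 RPKM in p53-/- libraries, against 121 and 104 RPKM in p53+/+ libraries (log2 difference -0.73, adjusted p = 0.35). The level in p53-/- libraries was thus higher than without drug in both replicates, and the change in the genotype difference was 1.30 on the log2 scale. RGS2 had 15.9 and 9.44 RPKM in p53-/- libraries, against 34.9 and 22.1 RPKM in p53+/+ libraries under Entinostat, a change in its genotype difference of 1.97. In the test of that change itself no gene was called (limma, 0 of 12466, with 164 at an unadjusted p under 0.05). With the replicate block 4 genes were called and 482 had an unadjusted p under 0.05, among them RGS2 (adjusted p = 0.01), CDKN1A (adjusted p = 0.022) and MKX, a homeobox factor (1.31, adjusted p = 0.01).

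**Figure D4:**
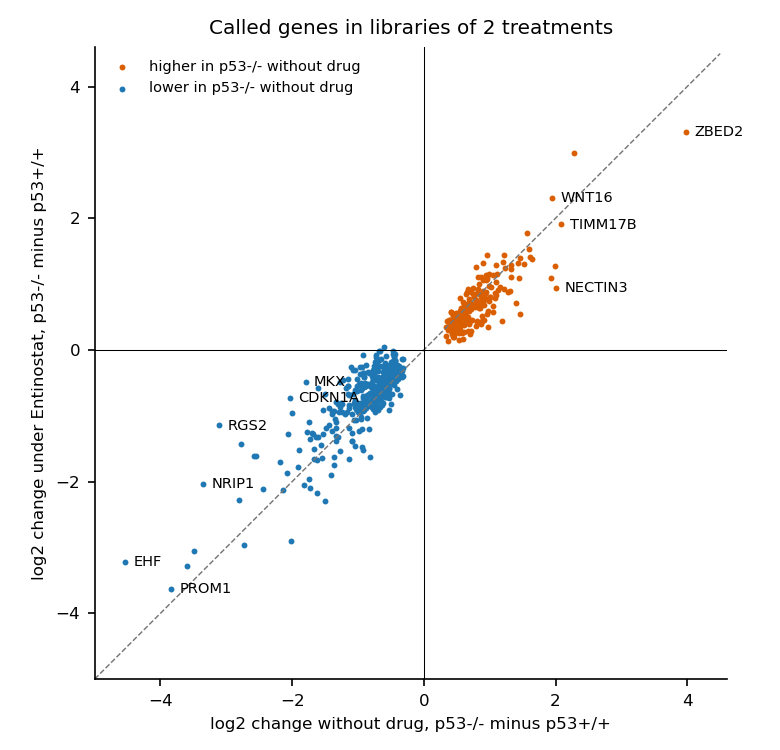
Log2 difference under Entinostat (vertical axis) against that without drug (horizontal axis), both p53-/- minus p53+/+ and from separate libraries, for genes called without drug, higher ones in orange and lower ones in blue, with a dashed line of equality. RGS2 (-1.15 against -3.11) and CDKN1A (-0.73 against -2.04) lie above the line, while PROM1 (-3.63 against -3.84) lies close to it.

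Some called genes were neighbours on a chromosome. Tested genes were ordered as in the RefSeq gene table, which placed 11583 of them, and adjacent tested genes called in the same direction were joined. Most called genes stood alone (488), and there were 23 pairs, 5 runs of 3 genes and 2 runs of 4 genes. On chromosome 3 the 4 adjacent genes GNL3, GLT8D1, SPCS1, a signal peptidase subunit, and NEK4, a kinase, were lower by similar amounts, with log2 differences of -0.99, -1.0, -0.91 and -0.88, or 50.1%, 48.2%, 53.2% and 52.5% of the p53+/+ mean. SPCS1 had 49.3 and 42.8 RPKM in p53-/- libraries, against 90.3 and 82.8 RPKM in p53+/+ libraries. Under Entinostat the 4 genes differed by -0.85 to -0.95. The gene before them, PBRM1, was also lower without being called (-0.72, limma adjusted p = 0.051). It was called with the replicate block (adjusted p = 9.1e-05) and under Entinostat (-0.74, adjusted p = 0.0498). NT5DC2, before PBRM1, differed by -0.35 (adjusted p = 0.083, 0.023 with the block) and was called under Entinostat (-0.64, adjusted p = 0.0039). The lower stretch may thus extend beyond the 4 genes on that side, up to NISCH (-0.05, not called). On the other side MUSTN1 and SFMBT1 had small positive values without drug.

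The second run of 4, on chromosome 6, was uneven: ADGRF1 differed by -2.78, and SLC25A27, PLA2G7 and TNFRSF21, a death domain receptor, by -0.76, -0.97 and -0.67. Another run on chromosome 6 joined MARCKS, an actin-binding substrate of protein kinase C (-1.67), HDAC2 (-0.96) and the kinase gene FRK (-0.65). On chromosome 2, DPP4, a surface peptidase, IFIH1 and GCA differed by -1.0, -0.90 and -1.73. On chromosome 19 the zinc finger genes ZNF91 and ZNF675 and the noncoding LINC00662 were higher, by 1.11, 1.05 and 0.60, and ZNF100, separated from them by 1 tested gene, by 0.86. The other runs of 3 were CRYBG3, CLDND1 and CPOX on chromosome 3 and NADK2, SLC1A3 and NIPBL on chromosome 5. Under Entinostat, ADGRF1 (-1.43, adjusted p = 0.056), SLC25A27 (-0.41), PLA2G7 (-0.25), FRK (-0.13), IFIH1 (-0.56), LINC00662 (0.53), NADK2 (-0.27) and NIPBL (-0.50) were not called there, nor were CRYBG3 (-0.45), CLDND1 (-0.26) and CPOX (-0.55). TNFRSF21 (-0.57), MARCKS (-1.51), HDAC2 (-1.04), DPP4 (-0.82), GCA (-1.35), ZNF91 (1.16), ZNF675 (1.14) and SLC1A3 (-1.61) were. The calls of 12 of the 23 genes in these 7 runs held without each of the 4 libraries, among them GNL3 to NEK4, ADGRF1, SLC1A3, MARCKS and HDAC2. SLC25A27 (0.055 to 0.225) and FRK (0.0746 to 0.112) lost theirs without any of the 4. Without p53-/- replicate 2 or p53+/+ replicate 1 the calls of PLA2G7 (0.215 and 0.206), LINC00662 (0.0649 and 0.358), GCA (0.13 and 0.128), CLDND1 (0.105 and 0.145), CPOX (0.13 and 0.145) and NADK2 (0.31 and 0.37) ended, and that of PLA2G7 also without p53+/+ replicate 2 (0.0583) and that of LINC00662 without p53-/- replicate 1 (0.252). ZNF675 lost its call without p53-/- replicate 2 (0.0519), and CRYBG3 (0.0836 to 0.203) and NIPBL (0.0719 to 0.124) without any library except p53-/- replicate 2.

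**Figure D5:**
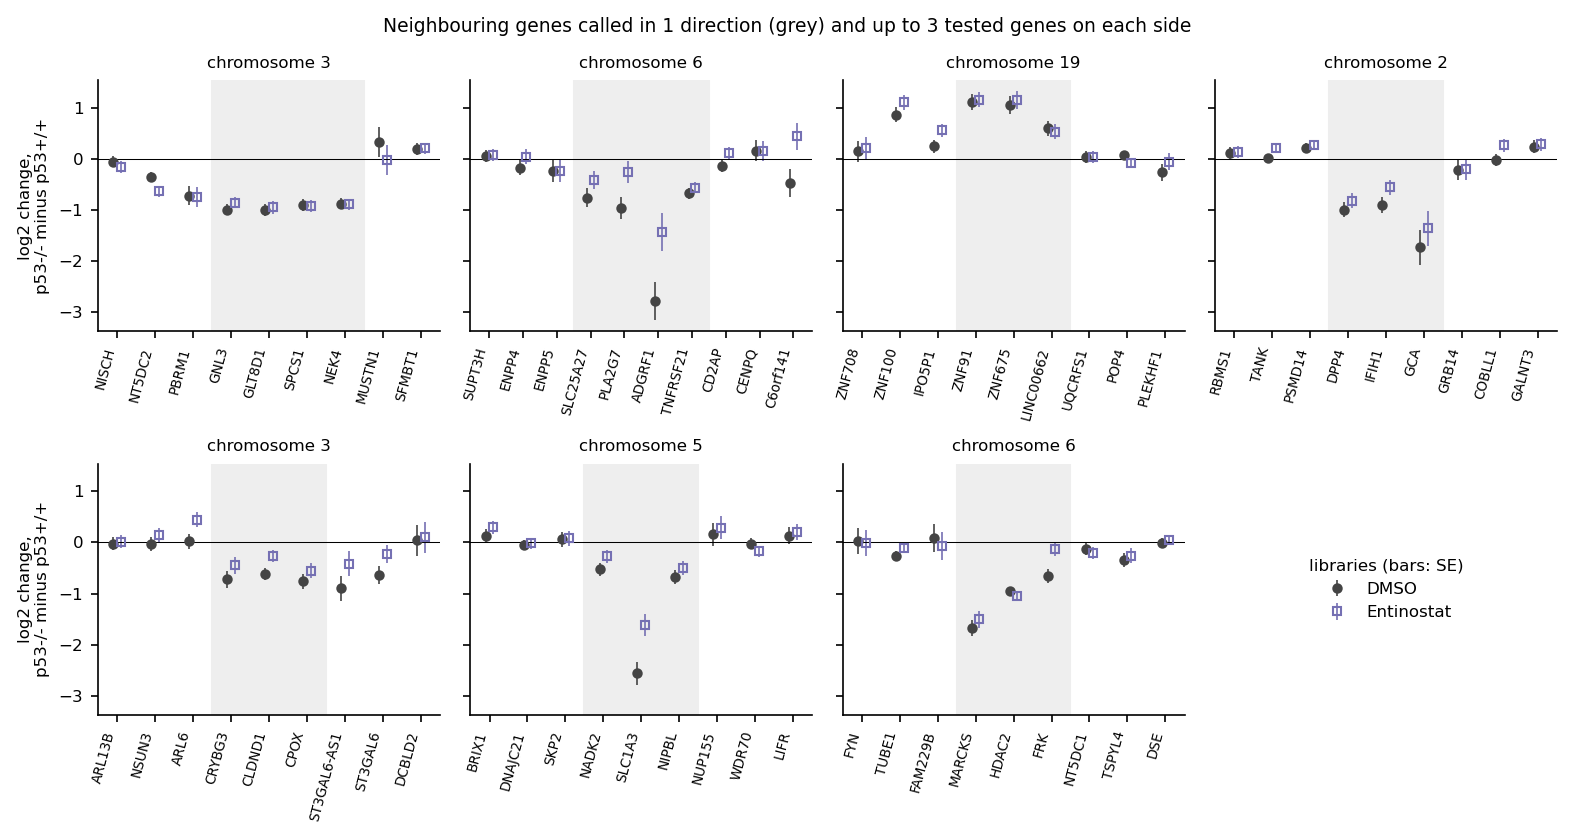
Log2 differences (vertical axis, p53-/- minus p53+/+, bars SE) without drug (filled circles) and under Entinostat (open squares) for the 7 runs of at least 3 neighbouring called genes (grey) and up to 3 tested genes on each side, in RefSeq order and not to distance. The 4 genes GNL3 to NEK4 on chromosome 3 lie near -1 in both sets of libraries, and their neighbours to the right lie near or above 0.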

How the data were processed

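Polyadenylated RNA of HCT116 cells was made into TruSeq stranded mRNA libraries, per the labels' protocols. Reads were aligned to hg19 with Bowtie2 and quantified in Partek, per the submitters' processing notes. The sources used here give no versions, gene models or strand setting. The authors deposited RPKM per gene, scaled by gene length and library size. All 16 columns matched a sample by name. The table holds no counts, so no counting error is given.

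From these values log2(RPKM + 0.5) was computed. limma 3.58.1 (R 4.3.3) fitted 8 group means to 16 libraries with an intensity trend (8 residual and 4.09 prior degrees of freedom), and p-values were adjusted by Benjamini-Hochberg over 12466 genes. The code was tested on simulated data, whose noise was drawn without pairing by replicate number. There 30.3% of log2 differences of 0.5 were called, 89.6% of those of 1 and 98.5% of those of 2. A gene that was not called is therefore not shown to be unchanged. Replicate numbers paired the samples: deviations from group means correlated between all 28 pairs of groups (r 0.27 to 0.78, and 0.5 between the DMSO groups), so counts and named genes whose calls change with the number as a block are given with both fits. Adjusted p-values given without mention of the block come from fits without it. So do all those with a library left out, where the pairing was not kept. Folds are ratios of mean RPKM, and SE is that of the log2 difference.

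Named genes are EHF, PROM1, CDKN1A, MDM2, CFLAR and TNFRSF10B, the 20 largest rises and falls averaging at least 1 RPKM in the DMSO libraries, p53 targets and up to 5 called members per other list. Neighbouring genes, MKX, TMEM173 and TRIM38 were added after their values were seen. The members and lists were chosen with earlier results of these data known. Lists came from general knowledge, overlap in part, and were described by counts and medians only. Some genes, the targeted one among them, are not reported here. RefSeq promoters (GRCh38.p14) served for sequences, and RefSeq gene order for neighbours, since the builds differ. Alternatives tried were pseudocounts of 1 and 0.1, no filter, a mean RPKM of at least 1, median-of-ratios scaling, quantile normalization, no trend, a fit of the compared groups only, the replicate block and leaving out each library.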

Additional observations from a re-analysis of the deposited data

How the results depend on the processing

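Without drug the count of 585 genes stayed within 1.5 times its value under both pseudocounts, both filters, both scalings, no trend and a fit of the compared groups only (491 to 631), was 1634 with the replicate block, and ran from 239 to 341 when a library was left out. Under Entinostat 469 became 131 in a fit of the compared groups only and 1644 with the block, and ran from 175 to 261 without a library. For Nutlin-3A added to Entinostat in p53+/+ cells, 1851 became 233 in a fit of the compared groups only and 3896 with the block, and ran from 729 to 2425 without a library. Genes whose genotype difference changed under Entinostat numbered 0, but 14 with no filter and 4 with the block. Of the 85 named and called genes, and of all 585, many lost their call when a library was left out. No named gene that was called reversed its direction under any of the settings. Uncalled genes with differences near 0 could change sign when a library was left out. An example is BAX, whose p53-/- libraries (25.2 and 25.3 RPKM) lay between its p53+/+ libraries (26.2 and 24.5 RPKM). MDM2 was also not called with a pseudocount of 1, no filter, no trend or either scaling (adjusted p 0.053 to 0.11). The block ended no call and added 10 named genes. The cause of these changes was not tested, other than that leaving out a library leaves 1 in its group, which is then assumed to vary like the other groups.

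With 2 libraries a group, differences between clones or cultures were not measured. RPKM gives no counts, so values near 0 have no stated counting error.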

Other observations

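The median log2 difference without drug lay between -0.03 and 0.03 for each chromosome with tested genes placed in the RefSeq order. Of windows of 25 adjacent tested genes, 91.4% had a median within 0.1 of 0. The highest window, chosen after its value was seen, was on chromosome 12, from GPR162 to SLC2A3, with a median of 0.42 without drug and 0.38 in the separate Entinostat libraries. In it 18 of 25 genes were positive, and 6 were called higher in p53-/- cells, 11 with the replicate block. The called genes included PHB2, a mitochondrial prohibitin (0.60), the glycolytic enzyme TPI1 (0.50), the deubiquitinase USP5 (0.47), P3H3 (0.72), LRRC23 (0.57) and C12orf57 (0.59). The 7 negative genes formed 1 block near the other end, from LPCAT3 through C1R, C1RL and CLSTN3 to CD163L1. Their log2 differences ran from -0.20 to -0.47, none of them called without drug. Under Entinostat CLSTN3 was called lower (-0.59, limma adjusted p = 0.038). After this block the window ended with SLC2A3, which was positive (1.18) and not called. The lowest window, around HOXA7 on chromosome 7, had a median of -0.31 without drug and -0.10 under Entinostat, with 1 called gene.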
